A study of Mus musculus with 2 samples.

Results

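The neural microRNA (miRNA) genes of the families miR-124, miR-9, miR-128, miR-137 and miR-132 with its neighbour miR-212 were examined in small RNA libraries of mouse embryonic stomach. The set was named by symbol and not by level, and it held 10 of the 1973 miRNA genes in the count tables: Mir137, Mir124a-1, Mir124a-2, Mir124a-3, Mir9-2, Mir9-3, Mir128-1, Mir128-2, Mir132 and Mir212. The study held 1 group of 2 libraries, replicate 1 and replicate 2, made from RNA under 30 nucleotides by the size label. Each was a pool of healthy stomachs from male and female B6NCrl embryos at 16.5 days, with 41 embryos in replicate 2 and no number given for replicate 1. Both carry the same donor label and no genotype, treatment or second age, so no conditions could be compared, and differences between the libraries describe these pools and not a condition.

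The enteric nervous system forms from neural crest cells that migrate into the gut wall before birth and give rise to its neurons and glia. A miRNA is cut from a hairpin precursor as a short RNA from its 5p or 3p arm, and bases 2 to 8 of that RNA, the seed, pair with target messages. miR-124 and miR-9 are textbook miRNAs of the nervous system, miR-124 of differentiated neurons and miR-9 of neural progenitors and neurons. miR-128 and miR-137 are enriched in brain neurons, and miR-132 and miR-212 are made from one activity-induced locus under the transcription factor CREB. In whole stomach, fewer cells of a type and less RNA per cell cannot be told apart.

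Reads of an arm that another hairpin also holds may be missing from the counts, so the mature sequences are shown. They were taken from RefSeq (GRCm38.p6), which held 7 of the 10 genes; Mir124a-1, Mir124a-2 and Mir124a-3 were without an entry. Each is written 5′ to 3′ with the seed in capitals.
mmu-miR-137-5p: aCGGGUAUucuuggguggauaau
mmu-miR-137-3p: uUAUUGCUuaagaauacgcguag
mmu-miR-132-5p: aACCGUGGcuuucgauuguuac
mmu-miR-132-3p: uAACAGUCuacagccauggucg
mmu-miR-212-5p: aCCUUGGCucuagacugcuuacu
mmu-miR-212-3p: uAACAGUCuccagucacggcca
mmu-miR-128-1-5p: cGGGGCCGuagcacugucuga
mmu-miR-128-2-5p: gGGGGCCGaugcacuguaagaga
mmu-miR-128-3p: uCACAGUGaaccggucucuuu
mmu-miR-9-5p: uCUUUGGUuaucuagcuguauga
mmu-miR-9-3p: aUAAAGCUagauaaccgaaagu

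By seed, miR-132-3p and miR-212-3p fell together and were identical at 17 of 22 positions, while neither arm of miR-137 shared its seed with another gene of the table. The 5p arms of Mir128-1 and Mir128-2 shared a seed but were different sequences, so a read of either arm could be placed at its own gene. The 3p arm was the same sequence in both miR-128 hairpins. Both arms of miR-9 were the same sequence in Mir9-1, Mir9-2 and Mir9-3. Of the 14 arms of the 7 genes, 6 occurred unaltered in another hairpin, and the same 6 arms were counted when a shared stretch of 20 bases was asked for.

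The hairpins with copies are shown whole, because the letters outside the shared stretches are those that could place a read at one gene. Capitals mark bases in a stretch of 20 or more that another hairpin also holds.
Mir128-1: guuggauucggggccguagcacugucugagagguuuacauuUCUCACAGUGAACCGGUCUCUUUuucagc
Mir128-2: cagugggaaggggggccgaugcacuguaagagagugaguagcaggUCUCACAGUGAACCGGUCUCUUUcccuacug
Mir9-1: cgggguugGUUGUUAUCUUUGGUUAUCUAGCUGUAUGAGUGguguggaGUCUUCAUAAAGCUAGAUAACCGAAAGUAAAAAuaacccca
Mir9-2: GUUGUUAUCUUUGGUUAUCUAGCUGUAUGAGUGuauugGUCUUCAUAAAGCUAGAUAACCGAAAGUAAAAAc
Mir9-3: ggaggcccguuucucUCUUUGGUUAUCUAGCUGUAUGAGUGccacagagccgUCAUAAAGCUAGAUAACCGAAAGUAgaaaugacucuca

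In Mir128-1, 23 of 70 bases (32.9%) were shared, and in Mir128-2 23 of 76 (30.3%). In Mir9-3, 51 of 90 bases (56.7%) were shared, and in Mir9-2 66 of 72 (91.7%), which left 6 bases of its own outside the shared stretches. Mir137, Mir132 and Mir212 shared no stretch of that length with any of the 1005 hairpins of the table. Mir9-1 had no row in the count tables and is shown only as a holder of the copies.

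**Figure D1:**
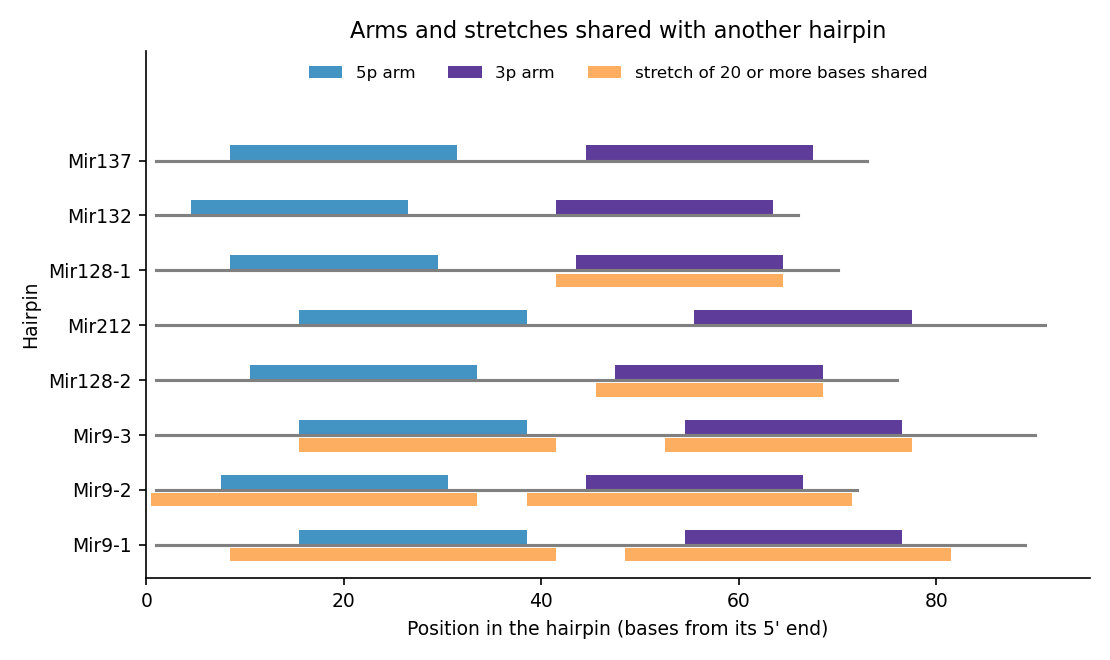
The 7 hairpins with a sequence and Mir9-1, drawn to scale in bases from the 5' end, with the 5p arm, the 3p arm and the stretches of 20 or more bases found in another hairpin. Mir137, Mir132 and Mir212 carry no shared stretch, each Mir128 hairpin carries 1 over its 3p arm, and in the Mir9 hairpins shared stretches cover both arms.

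Each count is for a whole hairpin, and 5p and 3p reads of a gene are summed in it. Reads that aligned to several positions stand in the tables as a separate total, which took 25.1% of replicate 1 and 25.2% of replicate 2, and they are presumably absent from every gene's count. Levels are given in CPM, that is counts scaled to 1000000 sense-assigned reads; replicate 1 had 7734578 such reads and replicate 2 had 7983714. A read spans a mature miRNA, so levels were not divided by hairpin length. The floor of 3 counts was 0.388 CPM for replicate 1 and 0.376 CPM for replicate 2. Intervals cover counting error only. Intervals and floors refer to reads placed in 1 position, not to reads placed in several.

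The 10 genes together held 14209 sense reads in replicate 1 and 11850 in replicate 2. That was 0.184% of the sense-assigned reads of replicate 1 (95% Clopper-Pearson bounds 0.181% and 0.187%) and 0.148% for replicate 2 (bounds 0.146% and 0.151%). The mean was 0.166% ± 0.0249 (SD, n = 2). A read was seen for 7 of the 10 genes, and 5 of them stood at 10 CPM or more in both libraries. No read lay on the strand opposite to any of the 10 genes.

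Mir137 led the set in counted reads of both libraries. The gene (ENSMUSG00000065569) lies on chromosome 3 from 118433857 to 118433929 on the plus strand (GRCm38, the assembly that mm10 names), in an exon of the non-coding transcript Gm26871. miR-137 is known for restraining neuronal maturation and dendrite growth. It had 10820 reads in replicate 1 and 8988 reads in replicate 2, which is 1399 and 1126 CPM, or 1262 ± 193 CPM (SD, n = 2). It supplied 76.1% of the reads of the 10 genes in replicate 1 and 75.8% in replicate 2. Among all 1973 genes it ranked 89 in replicate 1 and 90 in replicate 2. Its direct neighbours by mean level were Mir337 above at 1368 ± 159 CPM and Mir148a below at 1262 ± 129 CPM, and it differed from both by less than its own SD.

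Mir132 and Mir212 lie on chromosome 11 on the plus strand, Mir212 (ENSMUSG00000065590) from 75173388 to 75173478 and Mir132 (ENSMUSG00000065537) from 75173682 to 75173747, with 203 bases between them. Both are in an intron of the non-coding transcript 1700016P03Rik. miR-132 is known for promoting neurite outgrowth, and miR-212 shares its seed. Mir132 had 2291 reads in replicate 1 and 1973 in replicate 2, or 296 and 247 CPM, with a mean of 272 ± 34.7 CPM (SD, n = 2). Mir212 had 249 and 162 reads, which is 32.2 CPM in replicate 1 and 20.3 CPM in replicate 2, or 26.2 ± 8.42 CPM. The pair was thus unequal in both libraries.

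Reads of Mir132 outnumbered those of Mir212 by 9.20 to 1 in replicate 1 (exact 95% interval 8.07 to 10.5). In replicate 2 the ratio was 12.2 to 1 (10.4 to 14.4). These intervals overlap only from 10.4 to 10.5, and an overlap does not show that the ratios are equal. A difference of this ratio between the libraries was not tested. Neither hairpin holds a stretch of 20 bases that another hairpin shares. Mir132 stood between Mir598 at 279 ± 45.9 CPM and Mir34a at 267 ± 5.61 CPM in the order of all genes, and Mir212 between Mir7-2 at 26.3 ± 11.5 CPM and Mir758 at 24.7 ± 16.3 CPM. Each of these gaps was smaller than the SD of Mir132 or of Mir212.

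The miR-128 genes lie in introns of related protein-coding genes. Mir128-1 (ENSMUSG00000065520) is on chromosome 1 from 128202361 to 128202430 on the plus strand in R3hdm1, and Mir128-2 (ENSMUSG00000065441) on the minus strand of chromosome 9 from 112118636 to 112118711 in Arpp21. miR-128 is known for damping neuronal excitability in the mouse brain. Mir128-1 had 607 reads in replicate 1 and 582 in replicate 2, at 78.5 and 72.9 CPM, or 75.7 ± 3.95 CPM (SD, n = 2). Mir128-2 had 225 and 130 reads, at 29.1 CPM in replicate 1 and 16.3 CPM in replicate 2, or 22.7 ± 9.06 CPM.

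In counted reads Mir128-1 exceeded Mir128-2 in both libraries, by 2.70 to 1 in replicate 1 (exact 95% interval 2.31 to 3.16) and by 4.48 to 1 in replicate 2 (3.70 to 5.46). The intervals do not overlap. Since the 3p arm is the same in both hairpins, reads of that arm may be missing from both rows, and the ratio describes reads that could be placed at 1 gene. Mir128-1 stood between Mir362 at 79.9 ± 18.9 CPM and Mir138-2 at 73.4 ± 21.1 CPM, and Mir128-2 between Mir346 at 23.9 ± 5.93 CPM and Mir499 at 22.6 ± 22.4 CPM.

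The miR-9 genes stood near the floor in counted reads. Mir9-3 (ENSMUSG00000093238), on chromosome 7 from 79505264 to 79505353 on the plus strand in an intron of Mir9-3hg, had 17 reads in replicate 1 and 14 in replicate 2. That is 2.20 CPM (exact 95% interval 1.28 to 3.52) and 1.75 CPM (0.959 to 2.94). Mir9-2 (ENSMUSG00000065424), on chromosome 13 from 83738814 to 83738885 on the plus strand in an exon of C130071C03Rik, had 0 reads in replicate 1 and 1 read in replicate 2. Both values lie at or under the floor of 3 counts. Of these 2 hairpins, Mir9-3 had the smaller shared part and more counted reads. Of the miR-128 hairpins, Mir128-1 had the larger shared part (32.9% against 30.3%) and also more counted reads. A relation of shared part to counts was not tested. What miR-9 reads in the total of several positions amount to was not analysed here.

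The miR-124 genes had 0 reads in both libraries. They are Mir124a-1 (ENSMUSG00000065597) on chromosome 14 from 64590657 to 64590741 in an exon of Mir124a-1hg, Mir124a-2 (ENSMUSG00000093073) on chromosome 3 from 17795662 to 17795770 in an exon of Mir124-2hg, and Mir124a-3 (ENSMUSG00000065454) on chromosome 2 from 180894040 to 180894107 outside any gene annotated on its strand. All are on the plus strand. For reads placed in 1 position, a count of 0 has an upper bound from its exact 95% interval. It is 0.477 CPM in replicate 1 and 0.462 CPM in replicate 2. The mature miR-124 is known to come from several near-identical genes, so this bound does not hold for miR-124 as a whole, and a count of 0 does not show its absence. The miRNA that best defines neurons among the 5 families therefore had no counted read, and the label of the set as neural rests on what the other genes are known for.

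**Figure D2:**
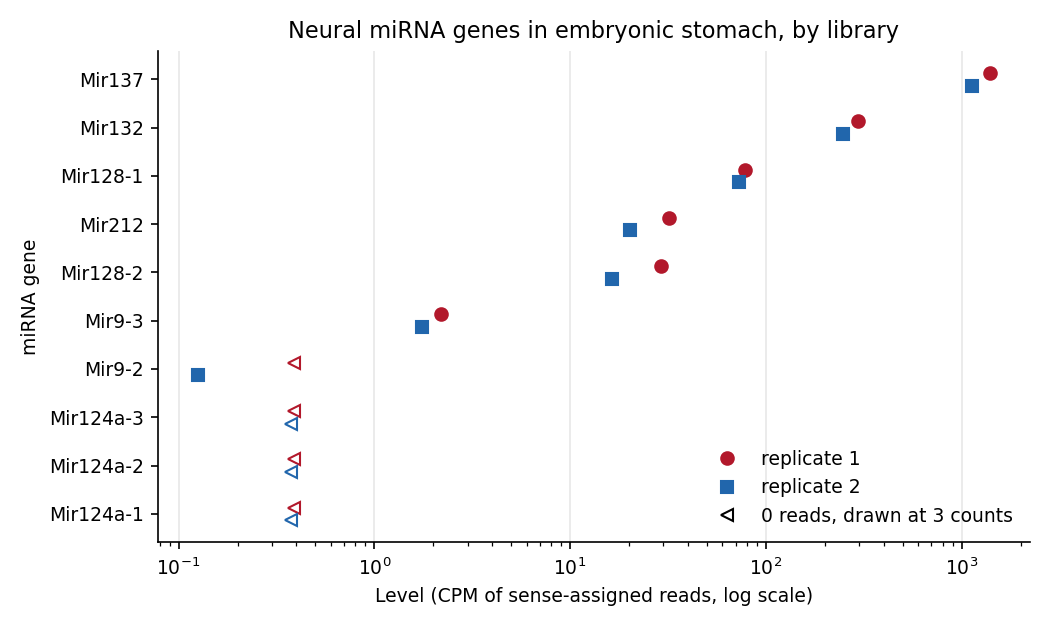
Level of each of the 10 genes in CPM of sense-assigned reads on a log axis, with 1 point per library for replicate 1 and replicate 2 and open triangles at the floor of 3 counts where a library had 0 reads. Mir137 stands at 1399 CPM in replicate 1 and 1126 CPM in replicate 2, Mir9-3 near 2 CPM, and the 3 Mir124a genes had 0 reads.

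In order of level, Mir137 was followed by Mir132, Mir128-1, Mir212, Mir128-2, Mir9-3 and Mir9-2. Mir137 had 4.72 times the reads of Mir132 in replicate 1 (exact 95% interval 4.51 to 4.94) and 4.56 times in replicate 2 (4.34 to 4.79). Mir132 had 3.77 times those of Mir128-1 in replicate 1 (3.45 to 4.13) and 3.39 times in replicate 2 (3.09 to 3.72). Mir128-1 had 2.44 times those of Mir212 in replicate 1 (2.10 to 2.84) and 3.59 times in replicate 2 (3.01 to 4.30). Each of these steps was larger than the spread between the libraries.

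Mir212 and Mir128-2 were not separated. Their ratio was 1.11 in replicate 1 (0.920 to 1.33) and 1.25 in replicate 2 (0.983 to 1.58), and both intervals include equal counts. Mir128-2 had 13.2 times the reads of Mir9-3 in replicate 1 (8.08 to 23.1) and 9.29 times in replicate 2 (5.34 to 17.5). In mean level over all genes, Mir137 ranked 89, Mir132 149, Mir128-1 204, Mir212 253, Mir128-2 256 and Mir9-3 374. The order holds for counted reads only, since reads of the copied arms of the Mir128 and Mir9 genes may be missing. That includes the place of Mir128-1 below Mir137 and Mir132. Only Mir137, Mir132 and Mir212 had no copied arm among the genes ordered here.

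**Figure D3:**
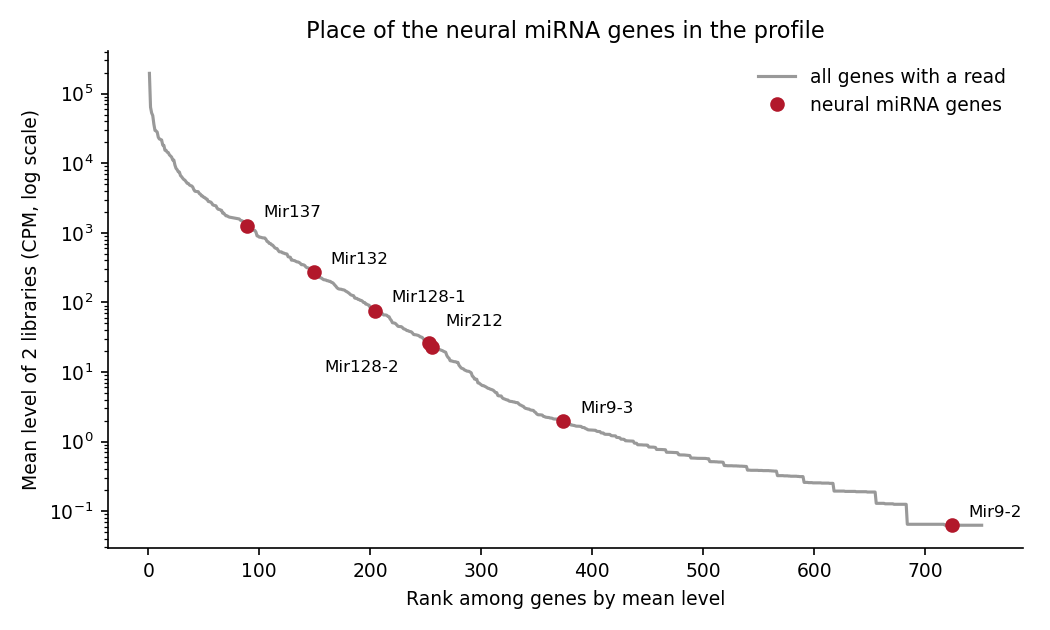
Mean level of 2 libraries in CPM on a log axis against rank, for all genes with a read (line) and for the 7 neural genes with a read (points). The neural genes are spread along the curve with Mir137 at rank 89, Mir132 at rank 149 and Mir9-3 at rank 374.

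Among all measured genes with a sequence, those whose every listed arm had an identical copy in another hairpin were counted least often. A read was seen for 11 of 35 such genes (31.4%), Mir9-2 and Mir9-3 among them. A read was seen for 45 of 50 genes (90.0%) with copies of some arms, such as Mir128-1 and Mir128-2, and for 576 of 831 genes (69.3%) with no copied arm, such as Mir137, Mir132 and Mir212. These shares describe the table and were not tested. The level of 10 CPM was met in each library by 5 (14.3%), 32 (64.0%) and 217 (26.1%) genes of these groups, in the same order. The highest mean level among genes with every listed arm copied was 1670 CPM, that of Mir199b. Arms without a sequence entry were not considered, and for Mir129-1, for example, only the 5p arm had one. Reads of an unlisted arm may therefore be part of such a level.

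The libraries were compared gene by gene over the 289 genes whose mean level was at least 10 CPM, with counts scaled by the trimmed mean of M values. A gene was called at an adjusted p under 0.05 and at least 2-fold, and by this rule 23 genes, or 7.96%, were called over the whole table. None of the 5 neural genes tested was called, while 3 of the 5 passed the adjusted p alone, by the two-sided exact binomial test with Benjamini-Hochberg adjustment over all 289 genes; an unadjusted p under 0.05 also gave 3. Of all genes tested, 76.1% passed the adjusted p alone, so a share of 3 in 5 is not a result about these genes. All 3 were higher in replicate 1, where 38.4% of all genes passed as higher and 37.7% as lower. The other 5 neural genes were too low to test. In edgeR's exact negative binomial test 0 of the 5 passed at an adjusted or an unadjusted p. Its spread was estimated from the same 2 libraries that it compares, so a gene of typical difference could not pass it, and this 0 says nothing about the stability of these genes.

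Mir137 was 1.10-fold higher in replicate 1 (log2 ratio 0.13, 95% interval 0.09 to 0.17), with an adjusted p of 3.93e-10 by the exact binomial test. Mir212 was 1.40-fold higher in replicate 1 (log2 ratio 0.48, interval 0.19 to 0.78), with an adjusted p of 0.00141 by that exact test. Mir128-2 was 1.57-fold higher in replicate 1 (log2 ratio 0.65, interval 0.34 to 0.98), with an adjusted p of 5.32e-05 by that exact test. All 3 were under 2-fold, and of the 289 genes tested 66.8% differed more between the libraries than Mir137, 23.5% more than Mir212 and 17.6% more than Mir128-2.

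Mir132, at a log2 ratio of 0.08 (interval -0.01 to 0.17) and an adjusted p of 0.0968 by the exact test, did not pass. Mir128-1, at -0.08 (interval -0.24 to 0.09) and an adjusted p of 0.411 by the exact test, did not pass either, and its sign turned with total-read scaling, at 0.11. With that scaling the median log2 ratio over the tested genes was 0.21, against 0.02 with the trimmed mean scaling, and with it Mir132 also passed the adjusted p alone.

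**Figure D4:**
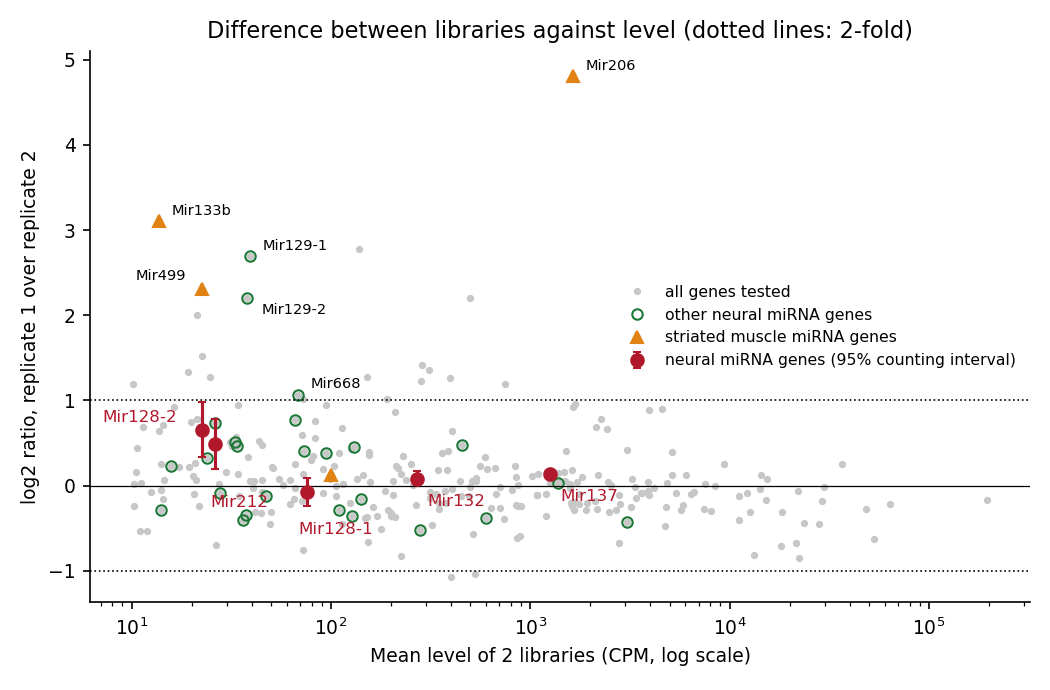
log2 ratio of replicate 1 over replicate 2 against mean level in CPM on a log axis for the 289 genes tested, with the 5 neural genes and their 95% counting intervals, other neural miRNA genes as open circles and striated muscle miRNA genes as triangles. The 5 neural genes lie between -0.08 and 0.65, inside the dotted lines at 2-fold, while Mir129-1, Mir129-2 and Mir206 lie above them.

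A broader list of 53 symbols of miRNA genes linked to the nervous system was read from the same test; it includes genes that other tissues also express. Of these, 47 had a row, 41 had a read and 25 were tested. The highest were Mir149 at 2789 CPM in replicate 1 and 3295 CPM in replicate 2, Mir708 at 1488 and 1280 CPM, and Mir676 at 555 and 640 CPM. Mir149 and Mir708 were the members of this list above Mir137, whose level was thus passed by 2 of 47. The glial and oligodendrocyte genes Mir338 and Mir219a-1 stood at 110 ± 5.90 and 15.7 ± 3.14 CPM (SD, n = 2).

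Of the 25 tested, 3 were called, all higher in replicate 1, against 7.27% of all genes tested called in that direction. Mir129-1 was at 536 reads in replicate 1 against 75 in replicate 2 (log2 ratio 2.69), and Mir129-2 at 494 against 97 reads (log2 ratio 2.21). Mir668 of the Dlk1-Dio3 cluster was at 747 against 324 reads (log2 ratio 1.07), a call that edgeR's exact negative binomial test did not make (adjusted p 0.999), while that test kept the calls of Mir129-1 and Mir129-2. The counts do not show which arm the reads of the 2 Mir129 genes come from. The 3p arm of Mir129-2 occurred in 0 other hairpins, and for Mir129-1 only the 5p arm had a sequence entry. Both genes encode the same 5p arm, so its reads may be missing from both rows. That 5p arm is shown here with its seed in capitals.
mmu-miR-129-5p: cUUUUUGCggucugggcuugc

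By the adjusted p alone, 12 of the 25 were higher and 8 lower in replicate 1, beside 38.4% higher and 37.7% lower of all genes tested. The median log2 ratio of the 25 was 0.23, beside 0.02 over all 289 genes. A shift of this list was not tested, and the list was chosen with earlier results of these data known. The 5 neural genes tested had a median of 0.13. Over the 8 striated muscle genes with a row, the summed level was 3362 CPM in replicate 1 and 202 CPM in replicate 2, and Mir206 alone gave 3184 CPM in replicate 1 and 99.8 CPM in replicate 2. Of the 4 tested, Mir206, Mir133b and Mir499 were called higher in replicate 1, while Mir208b, at a log2 ratio of 0.12, did not pass. Mir133a-1 and Mir133a-2 were at 0 reads, a count that may leave out reads placed in several positions. Of the 3 erythroid genes, Mir451a was called higher in replicate 1 at a log2 ratio of 1.20, while Mir144, at -0.38, passed the adjusted p alone as lower and Mir486, at 0.07, did not pass. The part of these tissues in the neural ratios was not tested.

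Set beside marker genes of other cell types, the neural genes took a small place in the tissue. Their summed level was 1837 CPM in replicate 1 and 1484 CPM in replicate 2. The smooth muscle genes, led by Mir143, summed to 202084 and 197398 CPM, the epithelial miR-200 genes, led by Mir429, to 50884 and 51089 CPM, and the endothelial gene Mir126a to 29028 and 29049 CPM. Stratified epithelium, led by Mir203, summed to 28559 and 38234 CPM and the endocrine list, led by Mir375, to 11038 and 12430 CPM. The smooth muscle and epithelial markers that a stomach wall and its lining should hold were thus present, and the tables hold miRNA genes only, so no gastric protein-coding marker could be checked.

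The hepatocyte gene Mir122 stood at 1821 CPM in replicate 1 and 1210 CPM in replicate 2, and the leukocyte list, led by Mir223, at 1355 and 1247 CPM. The glial and oligodendrocyte list, led by Mir338, was the lowest at 127 and 131 CPM, and the erythroid list stood at 1240 and 591 CPM. Lists differ in their number of genes and in copied arms, so their sums are levels of counted reads and not shares of cells.

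**Figure D5:**
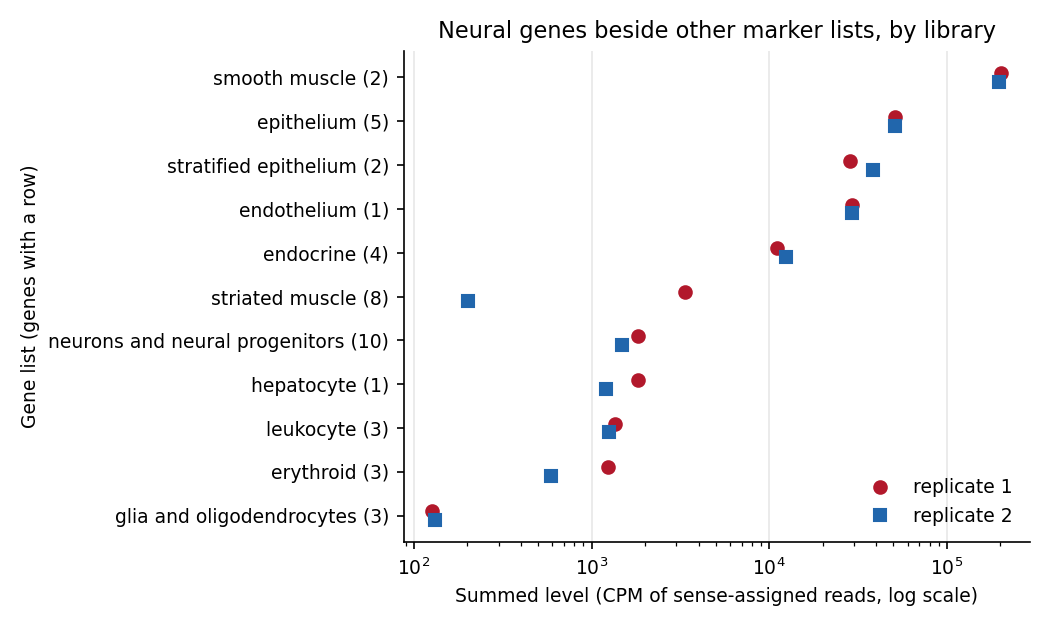
Summed level in CPM of sense-assigned reads on a log axis for the 10 neural genes and 10 other marker lists, with 1 point per library for replicate 1 and replicate 2 and the number of genes with a row in brackets. The neural list stands at 1837 CPM in replicate 1 and 1484 CPM in replicate 2, and the striated muscle list shows the widest gap between the libraries, 3362 against 202 CPM.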

How the data were processed

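Small RNA of 2 pooled stomach samples was sequenced, and the authors deposited raw read counts per gene and 4 summary totals for each library. The genome was mm10 and the annotation GENCODE M4, per the file headers; the tools and trimming were not given in the sources used here. The deposited counts come without regard to strand and for each strand, and the strand column with the larger total was used as sense. Rows that name no gene were left out of library sizes; the unmapped share was 21.3% for replicate 1 and 20.3% for replicate 2.

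Symbols and positions came from GENCODE M21 (1894 of 1973 identifiers matched) and sequences from RefSeq GRCm38.p6, with the same position in both for 7 of 7 genes. Counts were scaled by TMM (edgeR 4.0.16, R 4.3.3) over genes of at least 10 CPM on average, with 0.5 added for ratios, and tested with two-sided exact binomial tests (scipy 1.17.1). The biological coefficient of variation over the 289 genes tested was 0.294, and edgeR's negative binomial test used it, although it comes from the 2 libraries compared. DESeq2 1.42.0 gave other size factors. The test was checked on simulated data that held counting error only, so the check does not cover spread between libraries. The binomial p-values cover counting error only and hold no spread between libraries or animals.

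The genes and lists were chosen with earlier results of these data known. Named were the 10 genes, their direct neighbours in level, the 3 highest and all called genes of the broader list, and the leading and called genes of each marker list; Mir338, Mir219a-1, Mir133a-1, Mir133a-2, Mir208b, Mir144 and Mir486 were added after their values were seen. Alternatives were other thresholds, scalings, pseudocounts, strand counts, no minimum fold and each library left out.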

Additional observations from a re-analysis of the deposited data

Results flagged for a closer look

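Opposite-strand reads, which do not enter the levels, lay above the floor of 3 counts in both libraries at 2 genes of the broader neural list and at none of the 10 neural genes. Opposite to Mir129-2 there were 10 reads in replicate 1 and 6 in replicate 2, and opposite to Mir708 there were 16 and 30.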

How the results depend on the processing

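The share of the 10 neural genes was between 0.148% and 0.184% with each library left out, and 0.0398% without Mir137. The number of them at 10 CPM or more in both libraries stayed at 5 with each library left out (5 to 5) and when strand was ignored, was 6 at 1 CPM and 2 at 100 CPM. With no minimum fold 220 genes, 3 neural genes and 20 of the broader list differed between the libraries. With no filter on low counts 55 genes differed, with a minimum of 100 CPM 12 genes and 0 of the broader list, and with the negative binomial test, added after the data were seen, 7 genes and 2 of the broader list, Mir129-1 and Mir129-2, without Mir668. Scaling by DESeq2 size factors gave 23 genes, 21 higher and 2 lower in replicate 1, and total-read scaling 29 higher and 0 lower. With total-read scaling the log2 ratio of Mir128-1 was 0.11, the only reversal among the neural ratios run. With all reads as the denominator, the levels of the 6 neural genes with reads in both libraries moved down, for Mir137 from 1262 to 625 CPM. Each level was in effect multiplied by the share of sense-assigned reads among all reads. Ratios between libraries need both, so leaving one out gave no value. No paired analysis was possible because the study has 1 group. Mir9-2 and the Mir124a genes lie under the floor of 3 counts and Mir9-3 at 17 and 14 reads; the part of depth and of copied arms in this was not tested.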
